A study of Mus musculus with 12 samples.

Results

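The mitochondrial respiratory chain genes described here are those whose symbols begin with Nduf (complex I), Uqcr (complex III), Cox4 to Cox8 (complex IV) or Atp5 (complex V, the ATP synthase), together with Sdha, Sdhb, Sdhc and Sdhd (complex II). A gene was included when a probe set of the array carried that symbol and no other, and the probe set with the highest mean signal over the 12 arrays stood for it. This gave 90 of the 18193 genes named by a single symbol. Complex I held 36 of them, complex II 4, complex III 8, complex IV 17 and complex V 17, and 8 further genes (Ndufaf) encode assembly factors of complex I. Ndufa4 and Ndufa4l2 were counted with complex I by their symbols, although Ndufa4 is now assigned to complex IV. A gene was tested when its signal reached 20 on at least 1 array, 0.2 times the trimmed mean to which each array had been scaled. Of the 90 genes, 87 passed, and Ndufb4, Cox7b2 and Cox8b did not. Ndufb4 rested on a single dim probe set, while 2 brighter ones (mean signals 1309 and 942.2) are shared with Ndufb4b and Ndufb4c and were not used, so its level is not known from these values. Signals are given on the deposited linear scale, and a signal compares 1 gene between arrays, not different genes with each other.

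RNA of 12 mouse cultures was hybridised to Affymetrix arrays. Neurospheres are suspended clusters in which neural stem cells and their progeny multiply. The reference ones were prepared at embryonic day 14 from the ganglionic eminence (GE), a zone of dividing cells in the embryonic forebrain, and were on 1 array. Skin fibroblasts of adult mice were also on 1 array. The pluripotent group held the induced pluripotent stem (iPS) line 38C2 and the embryonic stem (ES) line EB3, with 1 array each, and each line also gave 1 array of primary and 1 of secondary neurospheres. Neurospheres derived from fibroblasts were on 4 arrays. Adult fibroblast-derived array 1 was grown with EGF and cAMP and array 2 with LIF, while embryonic fibroblast-derived array 3 was grown with LIF and array 4 with LIF and cAMP. The animals were C57BL/6, other than the source of the iPS and ES cells, and MHM was the neurosphere medium. Arrays of a group differed in line, source or medium, and the labels name no repeat of the same culture. The spread between arrays behind each p-value therefore holds these differences as well as technical ones.

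The respiratory chain passes electrons from NADH (at complex I) or succinate (at complex II, which is also an enzyme of the citrate cycle) through ubiquinone, complex III and cytochrome c to oxygen at complex IV. Complexes I, III and IV pump protons across the inner mitochondrial membrane, and complex V uses that gradient to make ATP. Most subunits are encoded in the nucleus and made in nearly every cell, but several subunits of complex IV have a common isoform and a second isoform restricted to tissues such as heart, skeletal muscle, lung or testis. Pluripotent and many proliferating cells are known to draw much of their ATP from glycolysis, and differentiation of neural cells is accompanied by growth of the mitochondrial network.

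The labels were set against lists of marker genes. The GE neurospheres carried 8 of 8 neural stem cell markers at a signal of 20 or more (summed signal 17430), and also 3 of 4 oligodendrocyte markers (13300) and 4 of 4 astrocyte markers (7341). The adult fibroblasts carried 8 of 8 fibroblast markers, and the pluripotent cells 8 of 8 pluripotency markers. The fibroblast-derived neurospheres carried 6 or 7 of 8 neural stem cell markers, at summed signals of 856.3 to 2394, and 7 or 8 of 8 pluripotency markers, at 2794 to 12550. Between 40.5% and 49.1% of probe sets reached 20 on an array, and the ratio of 3' to 5' signal ran from 1.25 to 1.52 for Actb and from 0.709 to 0.897 for Gapdh. The highest ratio of both genes was on the GE array and the lowest for Actb on the adult fibroblast array. In these bulk samples, fewer cells of a type and less RNA per cell cannot be told apart.

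The windows upstream of the genes were taken from RefSeq (mouse build GRCm38.p6), which held an entry for 74 of the 90 genes. In the 250 bases before the start, 8 of 74 genes (10.8%) had the core motif of NRF1, GCGCATGC, on either strand, against 2.26% of all 32851 windows. The ETS core bound by GABPA, CCGGAAG, was found for 14 genes (18.9%, against 6.91%), and the YY1 core AANATGGC for 7 (9.46%, against 3.91%). NRF1, GABPA and YY1 are transcription factors known to act on nuclear genes of the respiratory chain. The GC box GGGCGG was found for 31 genes (41.9%, against 32.7%), the cAMP response element TGACGTCA for 3 (4.05%, against 1.55%) and the ERRA motif TCAAGGTCA for 1 (1.35%, against 0.387%). A member gene counted if any of its windows matched, while the shares over all are per window. Over the 79 windows of the 74 genes, the share was 10.1% for NRF1, 17.7% for the ETS core and 8.86% for YY1. It was 39.2% for the GC box, 3.8% for the cAMP response element and 1.27% for the ERRA motif. The member windows held a median of 15 CpG dinucleotides, against 6 over all windows. A match describes letters in the window and is not a binding site.

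The 100 bases before the start are printed 5′ to 3′ on the strand of the gene, with matches to these motifs in capitals, for the 4 complex I genes whose lower level than in GE neurospheres passed the test under every alternative run. Ndufs3 (chr2:90904722-90904821, minus strand) held GC boxes and an ETS core that overlapped one of them, and the other 3 windows (Ndufc2, chr7:97399903-97400002, plus strand; Ndufc1, chr3:51408956-51409055, minus strand; Ndufv3, chr17:31520015-31520114, plus strand) held no match within 100 bases. Within 250 bases Ndufv3 had a GC box, and Ndufc1 and Ndufc2 had no match.
Ndufs3: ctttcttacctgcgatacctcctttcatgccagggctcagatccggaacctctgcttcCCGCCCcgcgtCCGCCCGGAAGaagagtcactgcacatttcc
Ndufc2: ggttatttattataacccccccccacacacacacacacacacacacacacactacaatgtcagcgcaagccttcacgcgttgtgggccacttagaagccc
Ndufc1: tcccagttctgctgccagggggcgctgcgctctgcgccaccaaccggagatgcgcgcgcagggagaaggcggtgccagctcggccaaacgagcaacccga
Ndufv3: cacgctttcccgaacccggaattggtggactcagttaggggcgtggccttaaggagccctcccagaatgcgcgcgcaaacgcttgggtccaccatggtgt

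The same windows are printed for 2 isoform pairs of complex IV, because the common member of each pair varied little over the arrays and the restricted member varied widely. Cox6b1 (chr7:30626115-30626214, minus strand) held an ETS core and Cox7a2 (chr9:79759854-79759953, minus strand) a GC box. Cox6b2 (chr7:4753095-4753194, minus strand) and Cox7a1 (chr7:30184071-30184170, plus strand) held no match within 100 bases. Within 250 bases Cox6b2 had a GC box and Cox7a1 had no match. The 100 bases held 9 CpG dinucleotides for Cox6b1 and 4 for Cox6b2, and 9 for Cox7a2 and 2 for Cox7a1.
Cox6b1: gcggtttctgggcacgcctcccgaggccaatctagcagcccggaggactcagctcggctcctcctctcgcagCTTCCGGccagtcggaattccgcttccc
Cox6b2: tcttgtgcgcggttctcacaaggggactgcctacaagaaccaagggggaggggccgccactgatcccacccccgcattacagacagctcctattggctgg
Cox7a2: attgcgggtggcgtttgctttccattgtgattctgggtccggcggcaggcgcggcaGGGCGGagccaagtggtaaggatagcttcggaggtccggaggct
Cox7a1: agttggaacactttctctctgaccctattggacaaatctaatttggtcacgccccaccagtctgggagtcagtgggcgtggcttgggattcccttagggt

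Most respiratory chain genes were bright on every array and varied over a narrow range. Of the 90 genes, 76 had a signal of 100 or more on all 12 arrays. The range of log2(signal + 5) from the lowest to the highest array had a median of 1.01 over the 87 genes tested, against 2.33 over all 13650 genes tested. It was under 1 for 40 of the 87, against 7.77% of all genes, and over 2 for 6, against 60% of all genes. Those 6 were Cox6b2 (range 5.41), Ndufa4l2 (3.98), Cox7a1 (3.32), Cox7c (2.37), Cox4i2 (2.19) and, named after its values were seen, Atp5mpl (2.19), a small subunit of the ATP synthase. Cox6b1, an intermembrane-space subunit of complex IV, had a range of 0.48.

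Over the 76 bright genes, the GE neurospheres had the highest mean and the adult fibroblasts the lowest. Relative to the mean over the 12 arrays, the mean log2 signal was 0.31 in GE neurospheres and -0.20 in adult fibroblasts, the arrays with the highest (1.52) and lowest (1.25) ratio of 3' to 5' signal of Actb, whose part was not tested. It was 0.17 in iPS cells and 0.11 in ES cells. Primary neurospheres stood at -0.14 (iPS) and -0.019 (ES), and secondary neurospheres at 0.090 (iPS) and 0.051 (ES). Adult fibroblast-derived array 1, with EGF and cAMP, stood at 0.11, apart from the other 3 fibroblast-derived arrays, all grown with LIF, at -0.16 (array 2), -0.15 (array 3) and -0.17 (array 4). These values carry no test, and the medium cannot be told apart from the single culture behind each array.

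The complexes did not follow the same order of arrays. In GE neurospheres, complex II stood at 0.55, complex I at 0.38, complex III at 0.38, complex V at 0.24 and complex IV at 0.21, while the complex I assembly factors stood at 0.035. In ES cells, the assembly factors (0.33) and complex V (0.29) were high, complex I was near the mean (0.00048) and complex II was low (-0.23). In adult fibroblasts, complex IV was near the mean (-0.0097) and the other classes lay between -0.32 and -0.18.

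Single genes also had their highest signal most often on the GE array and their lowest most often on the adult fibroblast array. Of the 87 genes tested, 37 (42.5%) had their highest signal on the GE array, against 14.8% of all genes, and 24 (27.6%) had it on the iPS array, against 10.4%. The lowest signal fell on the adult fibroblast array for 29 genes (33.3%, against 20.5% of all genes) and on the iPS primary neurosphere array for 21 (24.1%, against 11.8%). It fell on embryonic fibroblast-derived array 4 for 12 genes (13.8%, against 3.49%).

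**Figure D1:**
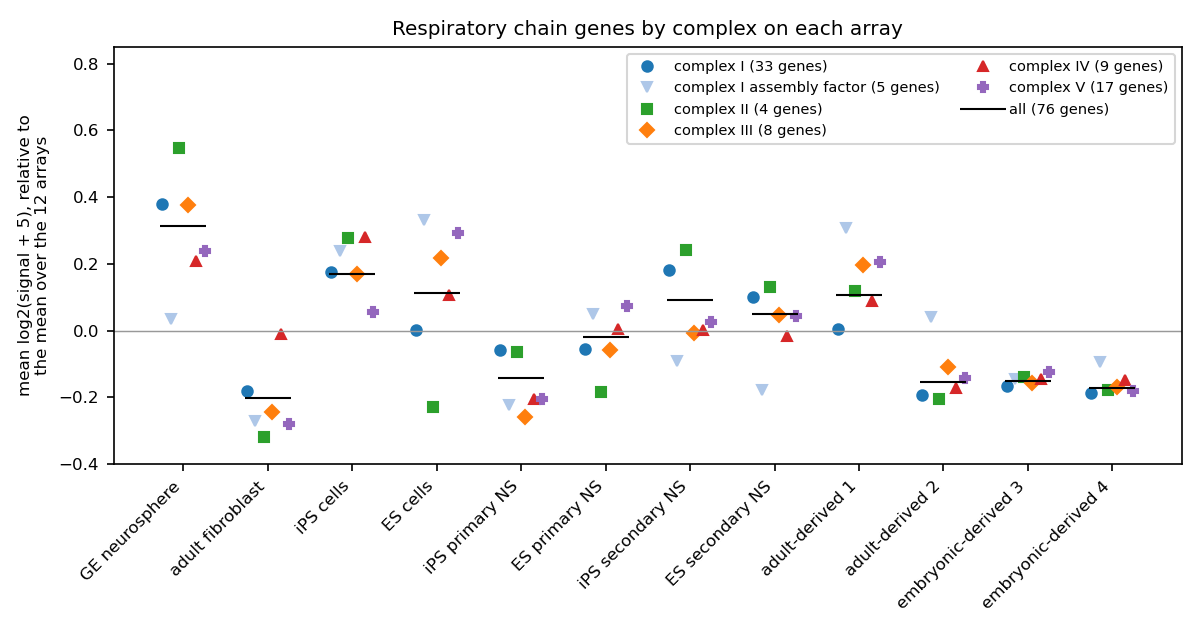
Mean log2(signal + 5) of the bright respiratory chain genes on each of the 12 arrays (x axis), relative to the mean over the arrays (y axis, log2 units); symbols are the mean of a complex or of the complex I assembly factors and black lines the mean of all 76 genes, with 1 array per position and no error bar. The black line is highest for the GE neurospheres (0.31) and lowest for the adult fibroblasts (-0.20), and complex II lies above it in the GE neurospheres (0.55) and below it in the ES cells (-0.23).

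Fibroblast-derived neurospheres were first set against the GE neurospheres, the neural stem cell culture here that came from tissue. Of the 87 genes, 17 were lower in the fibroblast-derived neurospheres and 0 were higher (limma, adjusted by Benjamini-Hochberg across all genes, threshold 0.05). In this comparison 28.4% of all genes were called, 12.8% lower and 15.6% higher, while 19.5% of the members were called lower. Complex I had 12 of 35 genes lower (34.3%) and complex II 2 of 4, while complexes III, IV and V had 1 each of 8, 15 and 17, and the 8 complex I assembly factors had 0. The median log2 difference was -0.36 over the 87 genes and 0.072 over all genes. It was -0.54 for complex I, -0.84 for complex II, -0.45 for complex III, -0.31 for complex IV, -0.30 for complex V and -0.21 for the assembly factors. All 4 fibroblast-derived arrays lay below the GE array for 59 of the 87 genes, against 34.9% of all genes, and for 27 of the 35 complex I genes.

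Within complex I the called genes came from both the peripheral and the membrane arm. Ndufv3 belongs to the NADH-binding module. Its signal was 1843.1 in GE neurospheres and 620.4, 672.6, 869.5 and 944.2 on fibroblast-derived arrays 1 to 4. No fibroblast-derived array reached the GE level, and the log2 difference was -1.26 ± 0.23 (SE; limma adjusted p = 0.00472). Ndufv1, the flavin-bearing subunit of that module, had a signal of 1094.8 against a mean of 706 ± 58.5 (SD, n = 4). Its log2 difference was -0.63 ± 0.20 (limma adjusted p = 0.0447). Without array 4 a second probe set became the brightest of the gene, and its difference was -0.41 and not called. Over all arrays that second probe set also gave -0.41.

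Ndufs3, a core subunit of the arm between the NADH site and the membrane, had a signal of 1517.7 in GE neurospheres. The fibroblast-derived arrays gave 793.6, 752.9, 785.5 and 700.5, close to the adult fibroblasts (700.4) and to the iPS cells (809.9). The log2 difference was -0.998 ± 0.21 (limma adjusted p = 0.00912). The core iron-sulfur subunits Ndufs7 (-0.64 ± 0.19) and Ndufs8 (-0.82 ± 0.24) were also lower, and Ndufa9, an accessory subunit, was lower too (-0.75 ± 0.22). A dimmer probe set of Ndufs8, with a mean signal of 39.2, gave the opposite sign (0.22).

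Ndufc1 and Ndufc2 are accessory subunits of the membrane arm. Ndufc2 had a signal of 3576.5 in GE neurospheres and 2215.5, 1852.2, 1853.1 and 1738.7 on the fibroblast-derived arrays, a log2 difference of -0.91 ± 0.18 (limma adjusted p = 0.00667). Its other probe sets had the same sign, at -1.19 and -1.28 for the bright ones. Ndufc1 had 2984.2 against 1833.5, 1445.1, 1666.3 and 1545.9, a log2 difference of -0.88 ± 0.19 (limma adjusted p = 0.0105). For both genes every fibroblast-derived array lay below the GE array, and the iPS and ES secondary neurospheres lay between them for Ndufc2 (2999.9 and 2767.9). Further membrane-arm and accessory subunits called lower were Ndufa3 (-0.995), Ndufa2 (-0.74), Ndufb11 (-0.70) and Ndufb5 (-0.69), with a dim probe set of Ndufa3 of the opposite sign (0.64).

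The catalytic subunits of complex II had their highest signals in the GE neurospheres. Sdha, the flavoprotein that oxidises succinate, had a signal of 1682.1 there, while the other 11 arrays lay between 689.7 and 1120.0. Sdhb, the iron-sulfur subunit, had 1886.0 there and between 903.9 and 1499.4 elsewhere. The log2 difference of the fibroblast-derived from the GE neurospheres was -0.77 ± 0.23 for Sdha (limma adjusted p = 0.0348) and -0.90 ± 0.24 for Sdhb (limma adjusted p = 0.0236). The called genes of the other complexes were Uqcrfs1, the Rieske iron-sulfur protein of complex III (-0.77 ± 0.22), Cox8a, the common isoform of a small complex IV subunit (-0.66 ± 0.17), and Atp5o, which joins the stalk of the ATP synthase to its head (-0.70 ± 0.18).

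The GE group was 1 array, assumed to vary like the groups of 2. The oligodendrocyte markers summed to 13300 on it and to 135.8 to 304.1 on the fibroblast-derived arrays, the astrocyte markers to 7341 against 24.0 to 118.1, and the part of these cells in the lower levels was not tested. The number of genes called was 6 without embryonic fibroblast-derived array 4, 10 without array 3 or without array 2, and 9 with the adult fibroblast-derived pair alone. With the line of origin (iPS or ES) as a block in the fit it was 25, the same 17 with Atp5mpl, Cox7a2l, Ndufa10, Ndufa5, Ndufb7, Ndufs5, Sdhc and Uqcr11. Ndufv3, Ndufs3, Ndufc1 and Ndufc2 passed in each of the 16 alternatives run.

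**Figure D2:**
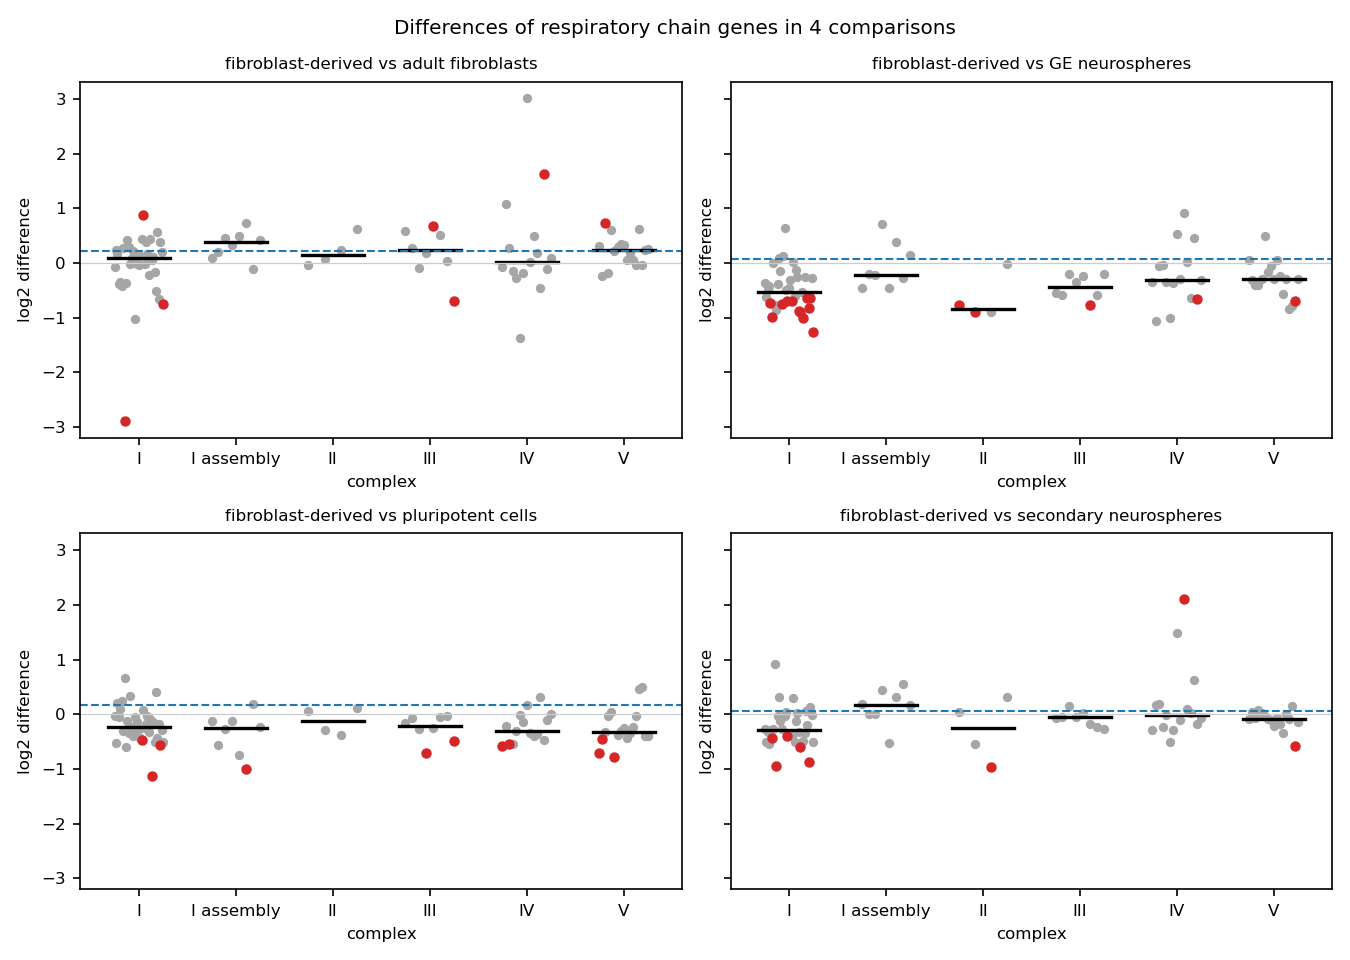
Log2 difference of each of the 87 respiratory chain genes (y axis, log2 units) by complex (x axis) in 4 comparisons of the fibroblast-derived neurospheres; red points are genes called at a limma adjusted p under 0.05, grey points are the others, black bars are class medians and the blue dashed line is the median of all 13650 genes tested. Against GE neurospheres the complex I median (-0.54) lies below the dashed line (0.072) and 12 of 35 complex I genes are red.

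Set against adult fibroblasts, the fibroblast-derived neurospheres differed in few respiratory chain genes. In them 4 genes were higher and 3 were lower, 7 of 87 (8.05%), where 23.2% of all genes were called (15% higher and 8.21% lower). Cox7c, a complex IV subunit, had the largest called increase. Its probe set was dim, at 13.6 in fibroblasts and 54.2, 48.5, 46.8 and 59.8 on arrays 1 to 4, with a log2 difference of 1.62 ± 0.35 (limma adjusted p = 0.0123). Ndufb6, a membrane-arm subunit of complex I, had 1009.1 in fibroblasts and 1928.0, 1688.0, 1887.8 and 1976.4 in the derived neurospheres, a difference of 0.88 ± 0.19 (limma adjusted p = 0.0126). No derived array overlapped the fibroblast array for either gene. A second bright probe set of Ndufb6, with a mean signal of 1151, gave a smaller difference (0.46).

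The other called increases were Atp5c1, the rotating central stalk of the ATP synthase (0.73 ± 0.18), and Uqcrc2, a core protein of complex III (0.67 ± 0.20, and 0.32 on its other bright probe set). Uqcrq, a small complex III subunit, was lower (-0.70 ± 0.19), as were Ndufv3 (-0.76 ± 0.23) and Ndufa4l2 (-2.90 ± 0.89). By class, complex I had 1 gene higher and 2 lower of 35, complex III 1 and 1 of 8, and complexes IV and V 1 higher each. The direction of the members as a whole depended on the scaling of the arrays. Their median was 0.16 beside 0.22 for all genes as deposited, and -0.31 beside -0.20 after the arrays were set to a common median, which moved the median of all genes by -0.42. The members' median minus that of all genes was -0.059 as deposited, -0.10 at a common median and 0.17 after quantile normalization. The fibroblast array was alone in its group, its fibroblast markers summed to 29430 against 386.3 to 3016 on the derived arrays, and their part was not tested. Without array 3 the number of genes called was 2, and without array 4 it was 4. With the line as a block it was 9, the same 7 with Ndufs7 and Sdhd.

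Against pluripotent cells, 11 of the 87 genes were lower in the fibroblast-derived neurospheres and 0 were higher (12.6% lower, where 9.77% of all genes were called lower, 20.4% higher and 30.2% in either direction). Uqcrc1, the other core protein of complex III, had signals of 2218.8 in iPS and 2052.1 in ES cells. The fibroblast-derived arrays gave 1512.2, 1257.2, 1274.8 and 1188.5, all below both pluripotent arrays, and the log2 difference was -0.71 ± 0.13 (limma adjusted p = 0.00602). Its call held in each of the 18 alternatives run. Both subunits of the catalytic head of the ATP synthase that bind nucleotide were lower, Atp5a1 (2177 ± 239, n = 4, against 3523 ± 67.9, n = 2, SD) at a log2 difference of -0.70 ± 0.12 and Atp5b (3380 ± 157 against 4594 ± 137) at -0.44 ± 0.11. A bright second probe set of Atp5a1, with a mean signal of 1861, gave a difference of -0.16.

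Ndufs1, the largest core subunit of complex I, was lower at a log2 difference of -1.13 ± 0.29 (limma adjusted p = 0.0191). Its fibroblast-derived signals were 482.1, 440.3, 415.9 and 450.3, below the iPS (1082.3) and ES cells (894.0), while the GE neurospheres had 650.9. Ndufaf6, an assembly factor of complex I, had signals of 193.7 and 199.6 in the pluripotent cells and 94.0, 105.5, 81.1 and 106.4 in the fibroblast-derived neurospheres, a difference of -0.99 ± 0.25 (limma adjusted p = 0.0193). The remaining calls were Atp5g1 (-0.78 ± 0.25), Cox4i1 (-0.58 ± 0.14), Ndufv1 (-0.56 ± 0.16), Cox5a (-0.54 ± 0.15), Uqcrq (-0.48 ± 0.15) and Ndufb5 (-0.48 ± 0.14). The value of Atp5g1 rested on the ES cells: it was -0.32 and not called without them, and -1.24 without the iPS cells.

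Whether the members as a whole stood apart from all genes depended on the scaling. The median over the 87 genes was -0.26 beside 0.16 for all genes as deposited, and -0.66 beside -0.19 at a common median. After quantile normalization it was -0.012 beside -0.012, with 7 genes called. Without array 2 or array 3 the number of genes called was 3, without array 4 it was 5, and without the ES cells it was 6. With the line of origin as a block it was 14, with Atp5g1, Ndufb5, Ndufv1 and Uqcrq no longer called and Atp5mpl, Cox5b, Cox7a2l, Ndufa10, Ndufaf5, Ndufb3 and Sdhc called. The block gave the fibroblast-derived arrays the code of the iPS line. That fit therefore compared them with the pluripotent level of the iPS line and not with the mean of both lines. Pluripotency markers summed to 20760 and 22050 on the pluripotent arrays and to 2794 to 12550 on the fibroblast-derived arrays, and their part was not tested.

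In primary neurospheres of the iPS and ES lines, 8 of the 87 genes were lower than in the pluripotent cells and 0 were higher (9.20%, where 30.1% of all genes were called, 10.8% lower and 19.3% higher). This comparison shares its pluripotent arrays with the one above. The genes with the smaller differences were Uqcrc1 (-0.67 ± 0.15), Ndufv1 (-0.57 ± 0.18), Atp5a1 (-0.56 ± 0.14), Cox5a (-0.53 ± 0.18), Uqcrb (a small complex III subunit, -0.46 ± 0.15) and Atp5b (-0.41 ± 0.13). Uqcrc1 had a signal of 1340.9 in iPS and 1338.9 in ES primary neurospheres. Cox7a1 (-1.87 ± 0.60) and Cox7c (-1.09 ± 0.31), both dim, had the larger ones. Cox7a1 differed by -3.18 in the iPS line and -0.56 in the ES line, and was at -0.92 and not called without the iPS primary neurospheres and at -2.82 without the ES ones. The bright second probe set of Atp5a1 gave 0.043. The members' median minus that of all genes was -0.29 as deposited, -0.32 at a common median and 0.031 after quantile normalization. No gene was called in a fit of these groups alone or without the iPS primary neurospheres, and 2 were called without the ES cells. With the line as a block 9 were called, Atp5b no longer and Ndufaf7 and Uqcr10 in addition. Pluripotency markers summed to 251 in iPS and 9057 in ES primary neurospheres against 20760 and 22050 in the pluripotent cells, and neuron markers to 11240 and 4711 against 1776 and 2953. Their part was not tested.

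Fibroblast-derived and primary neurospheres differed in 4 of 87 genes (4.60%, where 29.9% of all genes were called, 15.6% higher and 14.3% lower). Cox6b2 (2.76 ± 0.86), Ndufaf7 (1.15 ± 0.35) and Ndufb6 (0.48 ± 0.15) were higher in the fibroblast-derived neurospheres, and Ndufb7, an accessory subunit of complex I, was lower (-0.54 ± 0.17). Ndufaf7, a methyltransferase needed for complex I assembly, had 96.1, 93.9, 127.3 and 136.0 on arrays 1 to 4, against 30.7 in iPS and 73.2 in ES primary neurospheres. The groups did not overlap for these 4 genes. The sizes rested on the iPS primary neurospheres: without them Cox6b2 was at 1.20, Ndufaf7 at 0.58 and Ndufb6 at 0.31, and without the ES ones at 4.32, 1.71 and 0.66. None was called without the iPS primary neurospheres, without array 1, 3 or 4 or with the adult fibroblast-derived pair alone, 1 was called without array 2, and 9 were called without the ES primary neurospheres. With the line as a block 15 genes were called, these 4 and Atp5mpl, Cox7a1, Cox7a2l, Ndufa10, Ndufb3, Ndufs1, Ndufs4, Sdhc, Sdhd, Uqcr10 and Uqcr11. That fit compared the fibroblast-derived arrays with the primary neurosphere level of the iPS line and not with the mean of both lines. Neural stem cell markers summed to 856.3 to 2394 on the fibroblast-derived arrays against 9158 and 9354 on the primary neurosphere arrays, neuron markers to 800.4 to 2140 against 11240 and 4711, and pluripotency markers to 2794 to 12550 against 251 and 9057. Their part was not tested.

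Against secondary neurospheres, 7 genes were lower in the fibroblast-derived neurospheres and 1, Cox7a1, was higher, 8 of 87 (9.20%, where 33.6% of all genes were called, 16.7% lower and 17% higher). Of the 7, 5 belong to complex I, 14.3% of its 35 genes tested, where 16.7% of all genes were called lower. Ndufs8 had signals of 1447.9 and 1735.5 in the iPS and ES secondary neurospheres and 1152.4, 857.7, 814.9 and 707.6 on arrays 1 to 4, a log2 difference of -0.86 ± 0.19 (limma adjusted p = 0.00948). Ndufa5, an accessory subunit of the peripheral arm, had 855.3 and 858.7 against 621.4, 438.6, 409.3 and 347.8, a difference of -0.94 ± 0.24 (limma adjusted p = 0.0169). For both genes array 1 was the highest of the fibroblast-derived arrays and still lay below both secondary neurosphere arrays.

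Ndufc2 (-0.59 ± 0.14), Ndufa3 (-0.43 ± 0.13) and Ndufb11 (-0.39 ± 0.12) were the other complex I genes. Against the GE neurospheres, with the same fibroblast-derived arrays, these 3 genes had -0.91, -0.995 and -0.70. Sdhc, a membrane anchor of complex II (-0.96 ± 0.32, and -0.22 on its dimmer probe set), and Atp5o (-0.58 ± 0.14) completed the list. The median was -0.29 for complex I and -0.083 for all 87 genes, beside 0.053 for all genes, and the median of the 87 was 0.072 beside 0.20 at a common median. No gene was called without the ES secondary neurospheres, 1 without the iPS ones, 5 without array 2 or 3, 4 without array 4 and 2 with the adult fibroblast-derived pair alone. With the line as a block 16 were called, Ndufa3 no longer and Atp5mpl, Ndufa10, Ndufa13, Ndufb3, Ndufb7, Ndufs1, Ndufs3, Ndufs5 and Sdhb in addition. That fit compared the fibroblast-derived arrays with the secondary neurosphere level of the iPS line and not with the mean of both lines. Astrocyte markers summed to 3396 and 4585 on the secondary neurosphere arrays and to 24.0 to 118.1 on the fibroblast-derived arrays, and oligodendrocyte markers to 2050 and 1194 against 135.8 to 304.1. Their part in these differences was not tested.

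Common isoforms varied little over the arrays, and 3 restricted isoforms varied widely. Cox6b1 had its lowest signal on adult fibroblast-derived array 2 (2967.4) and its highest in GE neurospheres (4134.2). Cox6b2, its isoform known from testis, went from 20 to 1055.1. It was 20 in iPS and 213.6 in ES primary neurospheres, 119.3 and 248.2 in the secondary ones, 56.7 in adult fibroblasts and 343.8 in GE neurospheres. The fibroblast-derived arrays gave 231.5, 348.9, 705.8 and 1055.1, and the iPS and ES cells 962.8 and 200. The log2 difference of the fibroblast-derived neurospheres was called against primary neurospheres (2.76 ± 0.86, limma adjusted p = 0.0414) and not against adult fibroblasts (3.02 ± 1.11, limma adjusted p = 0.083), though all 4 arrays lay above the fibroblast array.

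In the iPS line Cox6b2 differed by -5.28 between the primary neurospheres and the iPS cells, and in the ES line by 0.093, 1 array each. The embryonic fibroblast-derived arrays lay above the adult ones, with a log2 difference of adult from embryonic of -1.59 ± 0.995 (limma adjusted p = 0.59). Of 5 testis and sperm markers (Prm1, Prm2, Tnp1, Ldhc and Pgk2), none reached a signal of 20 on any array, and their sum lay between 15.1 and 31.1.

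Cox7a1, the heart and skeletal muscle isoform of another complex IV subunit, had 8.4 in iPS and 44.8 in ES primary neurospheres and 8.7 and 15.5 in the secondary ones. The fibroblast-derived arrays gave 28.9, 49.3, 105.5 and 128.4, the pluripotent cells 116.7 (iPS) and 68.4 (ES), the adult fibroblasts 46.2 and the GE neurospheres 33.2. All 4 fibroblast-derived arrays lay above both secondary neurosphere arrays, and the difference was called (2.11 ± 0.52, limma adjusted p = 0.0150). Striated muscle markers summed to 89.5 to 135.8 on the fibroblast-derived arrays and to 67.2 and 199.1 on the secondary neurosphere arrays, with 1 or 2 of 10 and 1 and 4 of 10 at 20 or more. Cox7a2, the common isoform, lay between 3367.6 and 5419.3 over all arrays.

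Ndufa4l2 resembles Ndufa4, a subunit first assigned to complex I and later to complex IV. It had 102.1 in adult fibroblasts and 63.9 on adult fibroblast-derived array 2, against 4.2, 2.3 and 4.2 on arrays 1, 3 and 4. In GE neurospheres it was 19.4, and on the remaining 6 arrays it lay between 1.8 and 9.3, under the signal of 20. The mean of the fibroblast-derived arrays, 18.7 ± 30.2 (SD, n = 4), rested on array 2. Fibroblast markers summed to 386.3, 3016, 1746 and 2508 on arrays 1 to 4. In ES secondary neurospheres, where Ndufa4l2 was 1.8, they summed to 4234, and in adult fibroblasts to 29430. Their part was not tested. Ndufa4 lay between 1525.7 and 2359.5 on all arrays.

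**Figure D3:**
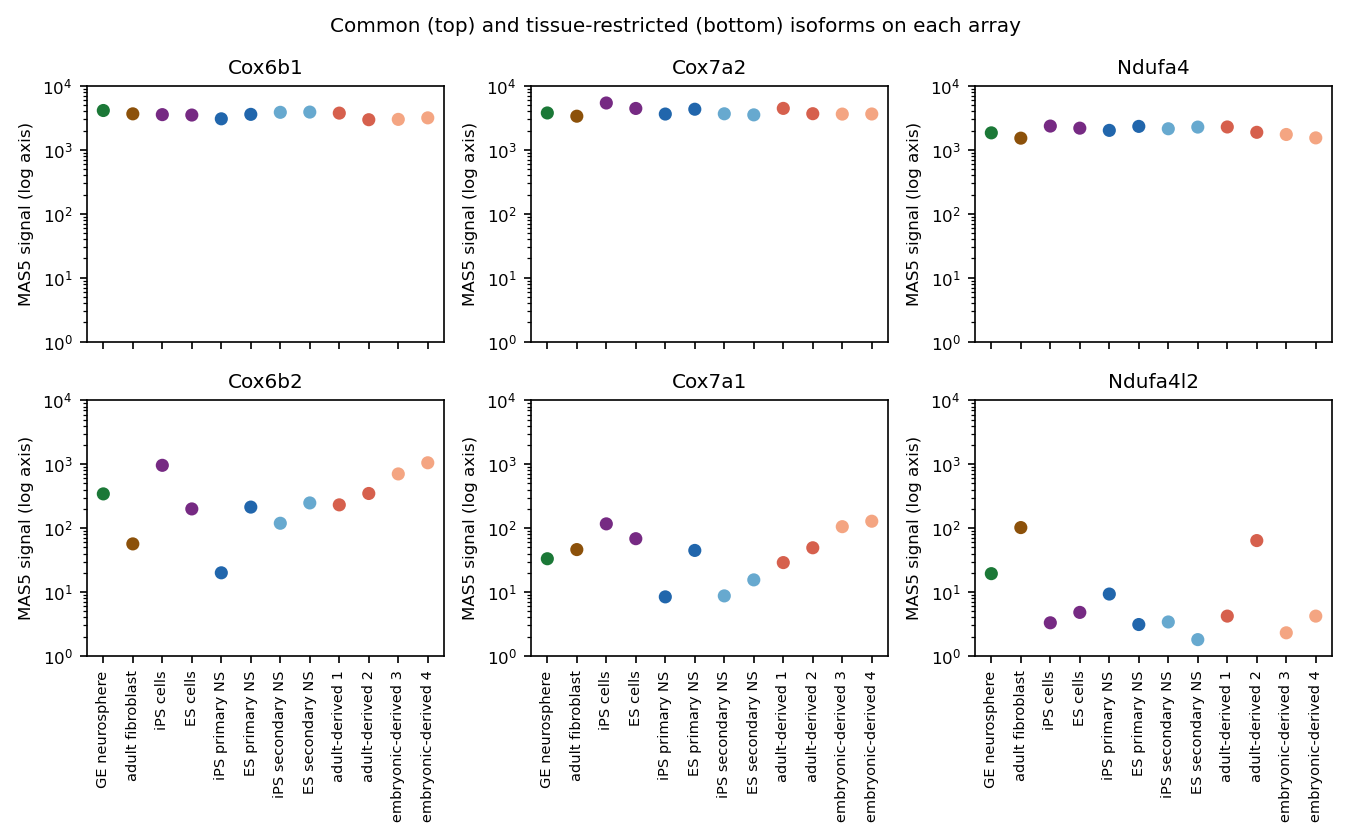
MAS5 signal (y axis, log scale) on each of the 12 arrays (x axis) for 3 common isoforms (Cox6b1, Cox7a2 and Ndufa4, top) and their restricted counterparts (Cox6b2, Cox7a1 and Ndufa4l2, bottom); each point is 1 array, coloured by group. The top row stays within a narrow band, while Cox6b2 spans 20 to 1055.1 and Ndufa4l2 exceeds 20 in the adult fibroblasts (102.1) and on adult fibroblast-derived array 2 (63.9).

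The other restricted isoforms were dim throughout. Cox4i2, the lung isoform induced at low oxygen, lay between 1.1 and 22.8 with its highest signal in GE neurospheres, while Cox4i1 lay between 2751.4 and 4914.7. Cox6a2, the heart and muscle isoform, lay between 10.2 and 46.5, with 42.7 in iPS secondary neurospheres and 46.5 in adult fibroblasts, and Cox6a1 between 4092.9 and 6652.3. Cox8c, known from testis, lay between 30.6 and 50.9, and Cox8a between 1092.8 and 2098.7. Cox7b2 (2.2 to 17.8) and Cox8b (0.5 to 15.8) did not reach 20 on any array, and Cox7b was not analysed here.

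The 3 genes for the c ring of the ATP synthase make the same mature protein and differ in their import sequences and regulation. Atp5g1 was the most variable (553.0 in GE neurospheres to 1851.4 in ES cells, with 976.1 in iPS cells), and its call against pluripotent cells went with overlapping arrays, since array 1 had 1024.5. Atp5g2 lay between 1309.1 and 2245.7 and Atp5g3 between 2500.7 and 3970.7. Neither was called in any of the 8 comparisons. The small complex III subunits Uqcr10 (407.1 to 1112.9) and Uqcr11 (758.3 to 1771.4) were lowest in iPS primary neurospheres and highest in GE neurospheres, and were not called either. With the line as a block Uqcr10 was called between fibroblast-derived and primary neurospheres and between primary neurospheres and pluripotent cells, and Uqcr11 against GE and primary neurospheres. For fibroblast-derived against primary neurospheres, that fit used the primary neurosphere level of the iPS line. Cox7a2l, which takes part in supercomplexes of complexes III and IV, lay between 517.4 and 1421.7.

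In 3 comparisons no member was called. Between secondary and primary neurospheres 0 of 87 were called with limma (2.78% of all genes), with 7 at an unadjusted p under 0.05 (8.05%, against 20.4% of all genes). The median was 0.13 beside -0.0054 for all genes, with both secondary arrays above both primary ones for 26 genes, against 26.2% of all genes. At a common median it was -0.22 beside -0.32. With the line as a block 1 gene was called, Ndufc2, whose secondary signals (2999.9 and 2767.9) lay above the primary ones (1617.0 and 1878.0).

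Between adult and embryonic fibroblast-derived neurospheres 0 of 87 were called with limma (0.469% of all genes), with 6 at an unadjusted p under 0.05 (6.90%, against 11.7% of all genes). Both adult arrays lay above both embryonic ones for 32 genes, against 27.8% of all genes, and below them for 8, against 27.6%. The media of the pairs differed, so source and medium cannot be told apart.

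Between the iPS and ES lines, compared over the 3 stages with the stage as a term, 0 of 87 were called with limma (0.00733% of all genes), with 8 at an unadjusted p under 0.05 (9.20%, against 11.9% of all genes). The 3 iPS arrays lay below all 3 ES arrays for 8 genes (9.20%, against 2.71% of all genes) and above them for 9 (10.3%, against 3.39%). The 4 genes that follow were chosen after their values were seen. Atp5mpl had 379.5, 368.6 and 609.5 in iPS cells and their primary and secondary neurospheres, and 1257.1, 1162.6 and 1255.0 in the ES line. Its log2 difference was -1.46 ± 0.21 (limma adjusted p = 0.245). Cox7a2l had 610.0, 517.4 and 681.0 in the iPS line and 851.6, 1054.4 and 1152.0 in the ES line, a difference of -0.75 ± 0.19 (limma adjusted p = 0.271).

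Ndufs5, a complex I subunit, went the other way. It had 922.6, 777.0 and 1069.0 in the iPS line and 377.9, 406.1 and 535.7 in the ES line, a difference of 1.06 ± 0.18 (limma adjusted p = 0.245). Another probe set is shared by Ndufs5 and a pseudogene and was not used. Sdhc had 779.2, 696.1 and 955.2 in the iPS line and 359.2, 490.2 and 662.4 in the ES line, a difference of 0.71 ± 0.20 (limma adjusted p = 0.309). Its other probe set hardly separated the lines, with 215.4, 218.2 and 235.3 in the iPS line and 206.9, 200.8 and 208.2 in the ES line. On the probe sets used, the lines did not overlap for any of these 4 genes, and no difference passed the adjusted threshold. Each line was 1 line, so a difference of lines cannot be told apart from one of iPS and ES cells.

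**Figure D4:**
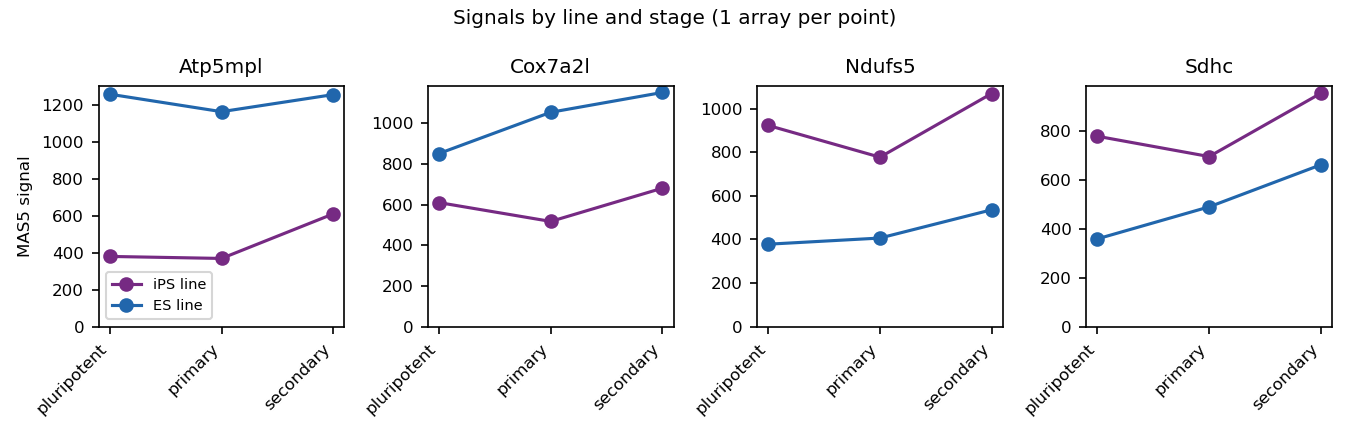
MAS5 signal (y axis, linear from 0) of Atp5mpl, Cox7a2l, Ndufs5 and Sdhc in pluripotent cells, primary and secondary neurospheres (x axis) of the iPS line (purple) and the ES line (blue), 1 array per point. Atp5mpl and Cox7a2l are lower and Ndufs5 and Sdhc higher in the iPS line at all 3 stages, and none of the 4 passed the adjusted threshold.

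Genes that supply, assemble or regulate the chain were read from 6 further lists. Among 16 tested regulators of mitochondrial biogenesis was Ppargc1a, the coactivator PGC-1 alpha. It had 301.9 in GE neurospheres, 189.4 and 118.2 in iPS and ES secondary neurospheres and 65.3 and 26.0 in the primary ones. It was 3.7, 2.9, 1.8 and 3.1 on the fibroblast-derived arrays, 2.5 in adult fibroblasts and 0.3 and 3.3 in the pluripotent cells. The fibroblast-derived neurospheres were lower against GE (-5.29 ± 0.52), secondary (-4.30 ± 0.40) and primary neurospheres (-2.57 ± 0.40), with limma adjusted p of 0.000354, 0.000184 and 0.00202. Its signals there lay far under 20, so the size of these differences depends on the constant added before the logarithm: against GE neurospheres it was -6.31 with 1 and -3.81 with 20, called with both. Primary neurospheres were higher than pluripotent cells (2.82 ± 0.46, limma adjusted p = 0.00333). Ppargc1a is also a gene of brown fat, whose 3 markers summed to 200.4 on the GE array and to between 3.1 and 47.1 on the others. On the GE array Cidea had 160.6, Ppara 39.4 and Ucp1 0.4, and Ucp1 lay under 20 on every array. The part of these markers was not tested.

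The related coactivator Pprc1 was ordered differently. It had 682.6 and 804.9 in iPS and ES cells, 103.6 in GE neurospheres, 117.8 in fibroblasts and 368.3, 339.5, 353.0 and 327.9 on the fibroblast-derived arrays, which were higher than GE neurospheres (1.70 ± 0.31) and adult fibroblasts (1.52 ± 0.31) and lower than pluripotent cells (-1.08 ± 0.24). Tfam, which packages and transcribes mitochondrial DNA, was likewise higher than in adult fibroblasts (1.26 ± 0.29) and lower than in pluripotent cells (-0.88 ± 0.22). Nrf1 was lower in primary neurospheres than in pluripotent cells (-1.90 ± 0.47), at -1.15 and not called without the iPS primary neurospheres, and Esrra, the orphan receptor ERR alpha, was not called in any comparison, with signals between 55.9 and 149.6.

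Against adult fibroblasts 4 of the 16 regulators were higher and 0 lower (Ppargc1b, Ssbp1, Pprc1 and Tfam; 25% higher, against 15% of all genes), with a list median of 0.70 beside 0.22 for all genes. Against pluripotent cells 4 were lower and 0 higher (Pprc1, Tfam, Yy1 and Ssbp1; 25% lower, against 9.77%), with a median of -0.33 beside 0.16.

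Among 16 import, channel and chaperone genes, 8 were lower and 0 higher in the fibroblast-derived neurospheres than in pluripotent cells (50% lower, against 9.77% of all genes), with a median of -0.58 beside 0.16 for all genes. Vdac2, a channel of the outer membrane (-0.60 ± 0.12), and the matrix chaperonins Hspd1 (-0.86 ± 0.18) and Hspe1 (-0.98 ± 0.22) had the smallest adjusted p. Hspd1 had 5098.6 and 4809.5 in iPS and ES cells and 3537.0, 2928.8, 2246.0 and 2405.3 on arrays 1 to 4. In primary neurospheres 9 of 16 were lower than in pluripotent cells (56.2%, against 10.8%) and 0 higher, led by Hspa9, the matrix chaperone that pulls proteins in (-1.24 ± 0.25). Against GE neurospheres 2 were higher (Phb2, 1.05 ± 0.26, and Tomm40, 1.04 ± 0.34; 12.5%, against 15.6% of all genes) and 0 lower, with a median of 0.41, where the respiratory chain genes had -0.36.

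Of 16 citrate cycle and pyruvate dehydrogenase genes, 3 were lower than in GE neurospheres (18.8%, against 12.8% of all genes) and 1 was higher (6.25%, against 15.6%). Cs, citrate synthase, had 2643.3 in GE neurospheres against 1154 ± 186 (SD, n = 4) in the fibroblast-derived ones, a difference of -1.21 ± 0.23 (limma adjusted p = 0.00548), and was also lower against secondary neurospheres (-0.61 ± 0.18). Dlst (-0.96 ± 0.22) and Dld (-0.78 ± 0.20), subunits of the oxoglutarate dehydrogenase complex, were the others, and Pcx, pyruvate carboxylase, was higher (1.69 ± 0.50). Pdhb, a subunit of pyruvate dehydrogenase, was higher than in adult fibroblasts (0.94 ± 0.18).

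Of 14 electron carrier genes, 1 was higher and 2 lower against GE neurospheres (7.14% and 14.3%, against 15.6% and 12.8% of all genes). Against secondary neurospheres 4 were higher and 1 lower (28.6% and 7.14%, against 17% and 16.7%). Cyct, the testis form of cytochrome c, had 6.7, 37.0, 115.5 and 116.7 on arrays 1 to 4, 0.7 in GE neurospheres and 2.1 and 6.1 in secondary neurospheres. It was called against both (3.18 ± 0.85 and 2.55 ± 0.66). Array 1 lay under 20, and the embryonic fibroblast-derived arrays were the highest of all 12. Etfdh, which passes electrons from fatty acid oxidation to ubiquinone, was lower against GE (-1.11 ± 0.24) and secondary neurospheres (-0.74 ± 0.18), higher against pluripotent cells (1.18 ± 0.18), and higher in secondary than in primary neurospheres (1.05 ± 0.21, limma adjusted p = 0.0428). Dhodh, the pyrimidine synthesis enzyme that feeds ubiquinone, was lower than in pluripotent cells (-1.72 ± 0.25).

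Of 25 assembly factors of complexes II to V, 2 were higher and 3 lower against adult fibroblasts (8% and 12%, against 15% and 8.21% of all genes). Of the 25, 1 (4%) was lower against GE neurospheres (Higd1a, -1.04 ± 0.30), where 12.8% of all genes were, and 1 against pluripotent cells (Cox11, which delivers copper to complex IV, -1.21 ± 0.24), where 9.77% were. Of 7 adenine nucleotide carriers and uncoupling proteins, Slc25a5 was higher than in adult fibroblasts (0.69 ± 0.15), and none was called against GE, pluripotent, primary or secondary cultures.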

How the data were processed

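Per the submitters' processing notes, Expression Console 1.1 was used with MAS5, and the deposited intensity values are on a linear scale. On each array their mean, trimmed by 2% at each end, was 100, a scaling that hides changes in total RNA. Genes were named through the platform annotation, and probe sets with several symbols were left out. The number of arrays limits the precision.

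Signals were analysed as log2(signal + 5). The 13650 genes that reached 20 on at least 1 array were fitted in limma 3.58.1 (R 4.3.3; lmFit, eBayes with trend, 2-sided) over 7 groups, with 5 residual and 3.63 prior degrees of freedom. Both pairs of fibroblast-derived arrays had equal weight, and groups of 1 array were assumed to vary like the others. Errors of log2 differences are standard errors, and this scale understates changes of dim genes. A gene was called when its p, adjusted by Benjamini-Hochberg across all genes, was under 0.05. The iPS against ES comparison was added after the data were seen (2 residual and 4.12 prior degrees of freedom). The script was tested on simulated data. Alternatives were another scaling, pseudocount, filter, probe set summary or variance model, the line as a block, fewer groups and leaving out each array. The block term was set for the ES line alone, so all other arrays shared the code of the iPS line. Fibroblast-derived arrays were then compared with the iPS-line level of the pluripotent, primary and secondary groups. Rescaling or leaving out an array could change which probe set stood for a gene.

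The labels pair arrays of the same line; deviations from the group means correlated at 0.252, 0.0578 and 0.425 over the 3 pairs of stages. Members, lists and tests were chosen with earlier results of these data known. Named genes were all isoform family members, up to 8 called members per direction and comparison, up to 3 called genes per list, and Ppargc1a, Esrra, Nrf1 and Tfam.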

Additional observations from a re-analysis of the deposited data

Results flagged for a closer look

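The log2 differences of 3 genes had opposite signs in the iPS and ES lines, at a size of at least 0.5 in each, with 1 array per line and stage, and the difference between the lines was not tested. From primary to secondary neurospheres, Cox4i2, the lung isoform of a complex IV subunit, differed by 1.21 in the iPS line and by -0.61 in the ES line, with all signals between 1.1 and 10.1. Cox6a2, the heart and muscle isoform of another, differed by 1.28 in the iPS line (14.6 to 42.7) and by -0.82 in the ES line (24.4 to 11.7). From pluripotent cells to primary neurospheres, Ndufaf4, an assembly factor of complex I, differed by 0.54 in the iPS line (273.5 to 399.6) and by -0.73 in the ES line (555.9 to 334.2).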

How the results depend on the processing

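The number of respiratory chain genes called moved with the processing, and no direction of a called gene did. Over 908 alternatives of the 55 called differences, 607 kept direction and call, 301 kept the direction and lost the call, and 0 reversed. Ndufc1, Ndufc2, Ndufs3 and Ndufv3 against GE neurospheres and Uqcrc1 against pluripotent cells passed in every alternative run. Cox7c against fibroblasts passed in the 15 alternatives in which it was tested, where the other genes called there had 16. Its highest signal was 91, so it was left out by the filter at 100 and its call was not tested there. Of the called differences, 34 could be set against another probe set of the gene, and 28 had the same sign on all. Dim genes such as Cox7c, Cox7a1 and Ndufa4l2 rest on signals near or under 20.

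For the fibroblast-derived neurospheres, the 7 genes called against adult fibroblasts became 14 at a common median, 12 after quantile normalization, 4 with no filter, 4 with the embryonic pair alone, 2 without the eBayes trend and 2 to 5 when 1 array was left out. Against GE neurospheres 17 became 26 with only the groups compared, 9 with the adult pair alone, 5 without the trend and 6 to 15 with 1 array left out. Against pluripotent cells 11 became 54 at a common median, 7 after quantile normalization, 4 without the trend and 3 to 10 with 1 array left out. Against primary neurospheres 4 became 8 at a common median, 2 with no filter, 1 without the trend, 0 with the adult pair alone, 15 with the replicate block (line of origin) and 0 to 9 with 1 array left out. Against secondary neurospheres 8 became 16 with only the groups compared, 15 after quantile normalization, 4 at a common median, 5 without the trend, 2 with the adult pair alone, 16 with the replicate block and 0 to 7 with 1 array left out. The block fits against primary and secondary neurospheres compared the fibroblast-derived arrays with the level of the iPS line.

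Between primary neurospheres and pluripotent cells 8 became 24 at a common median, 4 after quantile normalization, 4 with the mean of probe sets, 3 with no filter, 3 without the trend, 0 with only the groups compared and 0 to 12 with 1 array left out. Between secondary and primary neurospheres 0 became 1 with a filter at 100, a pseudocount of 20, quantile normalization or the replicate block. The block raised the count to 25 against GE neurospheres and to 9 against adult fibroblasts, losing no call in either.

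Over all genes, the 4080 called against primary neurospheres became 2672 with the adult pair alone, and the 4109 called between primary neurospheres and pluripotent cells became 1388 with only those groups. The 380 called between secondary and primary neurospheres became 736 at a common median, 648 with the block, 604 and 190 with pseudocounts of 20 and 1, and 2 with only those groups. The 64 called between adult and embryonic arrays ranged from 10 (pseudocount 1 or a filter at 100) to 139 (pseudocount 20). A common median moved the share of calls that were higher from 64.7% to 35.1% against adult fibroblasts, 67.6% to 38.6% against pluripotent cells, 52.3% to 41.5% against primary and 50.4% to 60.8% against secondary neurospheres, 64.1% to 48.5% for primary against pluripotent and 71.6% to 29.1% for secondary against primary. It moved the median of all genes by -0.42, -0.35, -0.18, 0.14, -0.18 and -0.31 in these 6 comparisons. The cause of these changes was not tested.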
